A study of Homo sapiens with 8 samples.

Results

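The genes described here are 5 inhibitors of the cyclin-dependent kinases (CDKs): CDKN1A, CDKN1B and CDKN1C of the CIP/KIP family, and CDKN2C and CDKN2D of the INK4 family. They were taken by gene symbol from RNA-seq count tables of 2 human acute myeloid leukaemia cell lines, HEL and MOLM-13, and are 5 of the 61544 genes in each table and 5 of the 16499 genes with enough counts to be tested. CDKN1A was selected on the values of these same libraries, for a rise of its mRNA after DDX6 shRNA in HEL alone, so its values in the DDX6 contrasts and in the control libraries are given as a description, without a test. The other 4 genes were taken for their family, and their p-values were adjusted over all 16499 genes.

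CIP/KIP proteins bind complexes of a cyclin with a CDK, chiefly those of CDK2, and stop the cell from entering or going through S phase. INK4 proteins bind CDK4 and CDK6 alone and keep the D-type cyclins off them, which leaves the RB protein unphosphorylated and the E2F factors silent. In blood cells these inhibitors accumulate as progenitors leave the cycle to mature, and CDKN1A, which encodes p21, is also induced by cell stress. DDX6 is an RNA helicase of P-bodies, the cytoplasmic granules that hold repressed mRNAs, and it acts in the repression of mRNAs by microRNAs.

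The 8 libraries form 4 groups of 2. HEL cells and MOLM-13 cells, both with the genotype label WT, were infected with a lentivirus that expresses a DDX6 shRNA or a control shRNA and were then selected with puromycin, so every library comes from transduced, puromycin-treated cells. HEL is an erythroleukaemia line with erythroid and megakaryocytic traits, and MOLM-13 is a monocytic line with a KMT2A fusion. Total RNA of whole cultures was sequenced, so fewer cells of a type and less RNA per cell cannot be told apart, and no protein was measured.

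Library totals were 10719829 to 12093544 counts in HEL and 7888318 to 8174432 in MOLM-13. Identity genes of HEL (GATA1, HBG1, HBG2, ITGA2B, KLF1) summed to 1672 to 1812 CPM (counts scaled to the effective library size) in the HEL libraries and 9.18 to 13.4 CPM in the MOLM-13 libraries. Those of MOLM-13 (SPI1, FLT3, HOXA9, MEIS1, CD33, LYZ) summed to 3251 to 4124 CPM in MOLM-13 and 286 to 292 CPM in HEL, where FLT3 had 6 and 0 counts over the control and DDX6 shRNA groups. Lymphoid, stromal, epithelial and endothelial markers, 6 in all, summed to 3.65 to 9.02 CPM in every library. DDX6 mRNA fell to 95.8 ± 1.43 CPM in HEL, against 178 ± 2.24 in its controls, and to 71.0 ± 4.47 CPM in MOLM-13, against 124 ± 2.99 (mean ± SD, n = 2 in each group), which left 53.8% and 57.4% of the control level. The 2 MOLM-13 control libraries differed more from each other than any other pair, with a chi-square per degree of freedom of 3.37 against 1.42 to 1.69.

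MicroRNA sites and a Pumilio motif in the 3′ untranslated regions (UTRs) are shown first, because they are known routes by which CIP/KIP mRNAs are repressed. Neither the microRNAs nor their binding was measured. miR-17-5p and miR-106b-5p are known repressors of CDKN1A, and miR-221-3p and miR-222-3p of CDKN1B and CDKN1C. Within each pair the seed, bases 2 to 8 in capitals, is the same (mature sequences from RefSeq):
miR-17-5p: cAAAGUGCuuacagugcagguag
miR-106b-5p: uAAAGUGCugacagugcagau
miR-221-3p: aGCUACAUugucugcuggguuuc
miR-222-3p: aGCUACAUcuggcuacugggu

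The 3′ UTR of CDKN1A, 1537 bases long in the transcript used, held 2 matches to the first seed (GCACTTT, sense strand, in capitals), which start at bases 468 and 1148. Of 1708 3′ UTRs of similar length, 23.4% held at least 1 such match, and the other 4 genes held none.
CDKN1A 468: acagatgGCACTTTgaaggggc
CDKN1A 1148: gttcattGCACTTTgattagca

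For the second seed (ATGTAGC) the 1344-base 3′ UTR of CDKN1B held 2 matches and the 703-base 3′ UTR of CDKN1C held 1, against at least 1 match in 6.90% and 3.23% of 3′ UTRs of similar length. CDKN1A, CDKN2C and CDKN2D held none.
CDKN1B 201: gcgttggATGTAGCattatgca
CDKN1B 274: accttttATGTAGCacataaac
CDKN1C 81: accgttcATGTAGCagcaaccg

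The motif bound by Pumilio proteins (TGTANATA, sense strand, in capitals) occurred 1 time in CDKN1A and 2 times in CDKN1B, and in no other member. At least 1 such motif was present in 29.3% and 26.9% of 3′ UTRs of similar length, and at least 2 in 6.72% for CDKN1B.
CDKN1A 127: ctcctcaTGTACATAccctggc
CDKN1B 253: ctacctgTGTATATAgttttta
CDKN1B 1069: gtacctgTGTACATAactctgt

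These 3′ UTRs also differed in base composition. That of CDKN1B had 33.4% G and C, lower than all but 16.7% of the 12732 tested coding genes with a 3′ UTR, and that of CDKN2C had 34.99%. The 3′ UTRs of CDKN1C, CDKN2D and CDKN1A had 44.7%, 47.3% and 54.6%. ATTTA pentamers, the core of AU-rich elements, numbered 7 in CDKN1B, 3 each in CDKN1A and CDKN2D, 2 in CDKN1C and 1 in CDKN2C (sense strand, overlaps counted). At least 7 were found in 8.92% of 3′ UTRs of a length like that of CDKN1B.

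CDKN1A, which lies at chr6:36676460-36687339 (GRCh38, plus strand), had few counts in HEL control cells and many after DDX6 shRNA. Its libraries held 65 and 58 counts with the control shRNA, or 5.15 and 4.85 CPM, and 450 and 436 counts with DDX6 shRNA, or 38.8 and 39.4 CPM. Both DDX6 shRNA libraries lay far above both control libraries. The mean went from 5.0 ± 0.213 to 39.1 ± 0.479 CPM (SD, n = 2), a 7.79-fold difference with a log2 fold change of 2.96 ± 0.13 (SE). Among the 16499 tested genes this was the 160th highest log2 fold change in HEL, which describes how the gene was picked and is not a result about it.

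In MOLM-13, CDKN1A was abundant before any loss of DDX6. The control libraries held 2407 and 2762 counts (310 and 348 CPM) and the DDX6 shRNA libraries 2746 and 2653 counts (361 and 353 CPM). The groups did not overlap, but the highest control library lay within 5 CPM of the lowest DDX6 shRNA library. Means were 329 ± 26.9 and 357 ± 5.97 CPM (SD, n = 2), a log2 fold change of 0.12 ± 0.07 (SE). Without control replicate 1, the lower of the control pair, it was 0.04, and without control replicate 2 it was 0.21. The log2 fold change in MOLM-13 less that in HEL came to -2.85 ± 0.15. In the control libraries the CDKN1A level in MOLM-13 was 65.6 times that in HEL, and after DDX6 shRNA the HEL level was still below every MOLM-13 library. An antisense transcript that shares 146 of the 3050 exonic bases of CDKN1A, DINOL, had 0 counts in the HEL libraries and 2 to 5 in the MOLM-13 libraries.

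The promoter of CDKN1A is known to be driven through GC boxes bound by Sp1-type factors. The 250 bases before the RefSeq start are printed for CDKN1A and, for comparison, for CDKN1B, the family member that moved the other way in HEL (GRCh38.p14, both on the plus strand, GC box GGGCGG or its complement CCGCCC in capitals). CDKN1A had 4 GC boxes, the last pair overlapping, a number reached by 7.63% of 35116 promoters, and CDKN1B had 1, as 42.6% have at least. The promoter of CDKN2D, not printed, had 2, a number reached by 24.3%. A link between the number of GC boxes and the changes after DDX6 shRNA was not tested. A motif match in the sequence is not a measured site.
CDKN1A chr6:36678464-36678713: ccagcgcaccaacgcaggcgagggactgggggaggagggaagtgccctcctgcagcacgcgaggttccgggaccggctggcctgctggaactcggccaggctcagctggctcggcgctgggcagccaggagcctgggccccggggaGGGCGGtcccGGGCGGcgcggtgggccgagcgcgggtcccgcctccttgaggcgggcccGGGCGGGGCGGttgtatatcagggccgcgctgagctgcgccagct
CDKN1B chr12:12717118-12717367: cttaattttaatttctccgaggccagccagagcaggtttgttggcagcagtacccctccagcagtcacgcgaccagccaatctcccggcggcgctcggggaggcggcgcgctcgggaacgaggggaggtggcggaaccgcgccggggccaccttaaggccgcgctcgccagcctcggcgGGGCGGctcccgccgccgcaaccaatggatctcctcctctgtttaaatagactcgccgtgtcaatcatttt

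**Figure D1:**
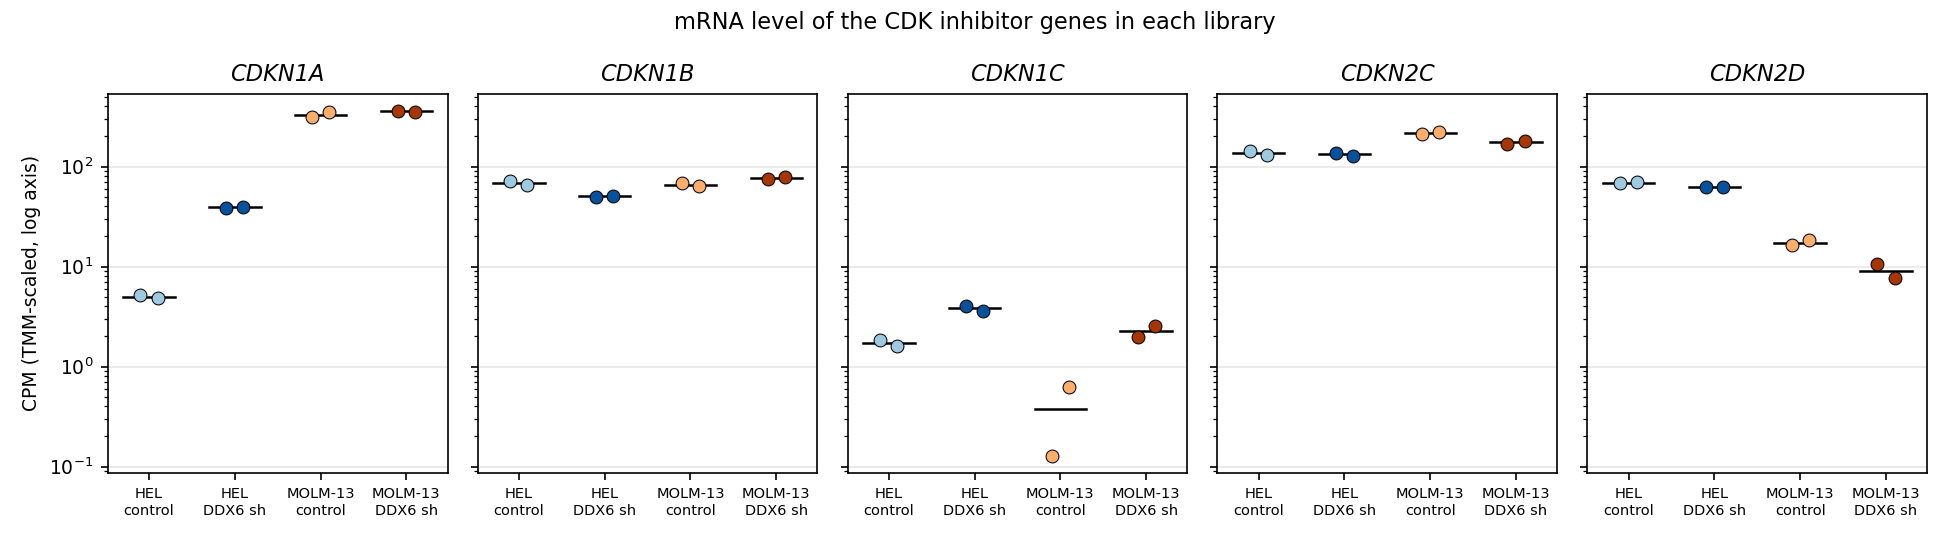
TMM-scaled CPM on a log axis for each CDK inhibitor gene in the 8 libraries, 1 point per library and a bar at each group mean. CDKN1A sits near 5 CPM in the HEL control libraries, near 39 CPM with DDX6 shRNA, and at 310 CPM or more in all 4 MOLM-13 libraries. CDKN1C is the lowest of the 5 genes in every group.

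CDKN1B (p27, chr12:12715058-12722371, plus strand), which holds CDK2 inactive in resting cells, fell in HEL after DDX6 shRNA. Its control libraries held 903 and 777 counts (71.6 and 65.0 CPM) and its DDX6 shRNA libraries 581 and 564 counts (50.1 and 51.0 CPM). Every DDX6 shRNA library was below every control library. The mean went from 68.3 ± 4.65 to 50.5 ± 0.687 CPM (SD, n = 2), 74.0% of the control level by the fit, with a log2 fold change of -0.43 ± 0.08 (SE, edgeR quasi-likelihood test, Benjamini-Hochberg adjusted p = 3.56e-05). At the same threshold (adjusted p under 0.05) 14.1% of the tested genes fell in HEL and 20.7% rose.

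The MOLM-13 libraries did not share this fall of CDKN1B. They held 528 and 508 counts with the control shRNA (68.0 and 64.0 CPM) and 568 and 596 counts with DDX6 shRNA (74.7 and 79.2 CPM), so the DDX6 shRNA libraries were the higher pair. The log2 fold change was 0.22 ± 0.09 (edgeR adjusted p = 0.0428), where 18.1% of the tested genes rose and 14.3% fell. That rise lost its call in 11 of 16 alternative fits, with a log2 fold change of 0.19 to 0.28 and an adjusted p of up to 0.241. The calls were lost without MOLM-13 control replicate 2 (0.19), DDX6 shRNA replicate 1 (0.28) or replicate 2 (0.19) and without any single HEL library (0.22 each). The difference between the lines, 0.66 ± 0.12 on the log2 scale, was called (edgeR interaction term, adjusted p = 7.46e-05) and kept its call in all 15 alternatives, with values of 0.58 to 0.75. In that comparison 7.53% of the tested genes were called with a positive difference and 7.59% with a negative one. With the control shRNA the lines had similar CDKN1B levels, and the libraries overlapped. HEL minus MOLM-13 was 0.05 on the log2 scale, with a 95% interval of -0.12 to 0.22 (edgeR adjusted p = 0.583).

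CDKN1C (p57, chr11:2883213-2885773, minus strand), an imprinted gene known for keeping blood stem cells quiescent, was the rarest of the 5 mRNAs and rose in both lines. In HEL it had 23 and 19 counts with the control shRNA and 47 and 40 counts with DDX6 shRNA, or 1.71 ± 0.165 and 3.83 ± 0.304 CPM (SD, n = 2). The groups did not overlap. Its log2 fold change in HEL was 1.16 ± 0.28 (edgeR adjusted p = 0.00102), a count ratio of 2.25 with an exact 95% interval of 1.54 to 3.33 that covers counting error only. The call was lost with DESeq2, at the same log2 fold change and an adjusted p of 0.0625.

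In MOLM-13, CDKN1C had 1 and 5 counts with the control shRNA and 15 and 19 counts with DDX6 shRNA, or 0.379 ± 0.355 and 2.25 ± 0.391 CPM (SD, n = 2). The control pair was close to the floor of 3 counts per library (0.378 to 0.399 CPM in MOLM-13), and both DDX6 shRNA libraries were above it. The log2 fold change was 2.52 ± 0.55 (edgeR adjusted p = 0.00031), and the ratio of counts was 5.88 with an exact 95% interval of 2.44 to 17.1. Its size rested on the control pair: it was 1.82 without control replicate 1 (edgeR adjusted p = 0.0169) and 4.01 without control replicate 2. The difference between the lines was 1.36 ± 0.66 and was not called (edgeR interaction term, adjusted p = 0.173, 95% interval 0.03 to 2.69). It was 0.70 without MOLM-13 control replicate 1 (edgeR adjusted p = 0.595) and 2.88 without replicate 2 (edgeR adjusted p = 0.0603). With the control shRNA, CDKN1C was higher in HEL by 2.12 ± 0.54 (edgeR adjusted p = 0.000481), a difference that was 1.47 without MOLM-13 control replicate 1 and 3.65 without replicate 2.

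**Figure D2:**
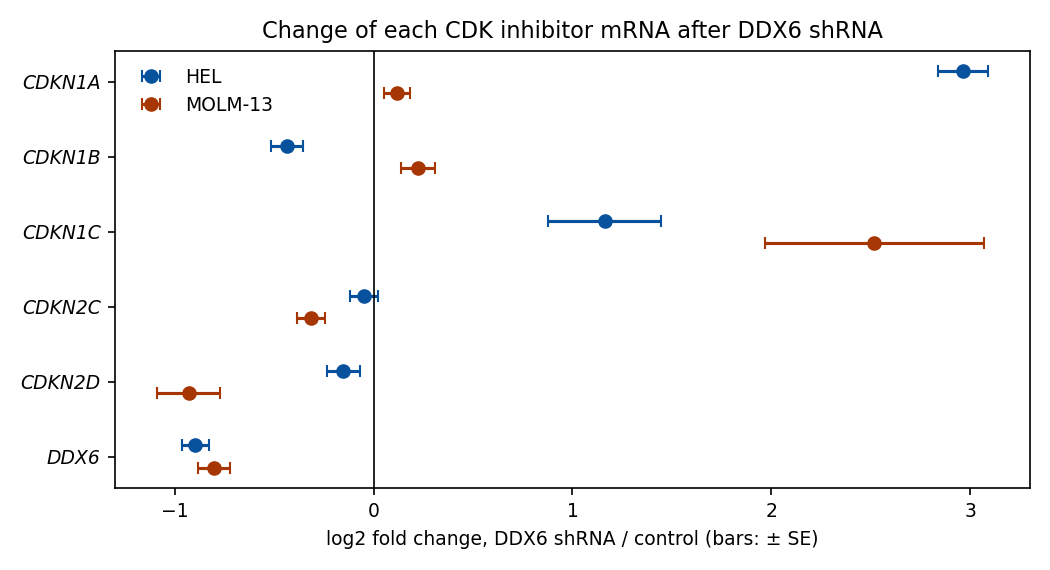
Log2 fold change of each CDK inhibitor gene and of DDX6, DDX6 shRNA over control, in HEL and MOLM-13, with bars of ± 1 SE. CDKN1A is far to the right in HEL (2.96) and near 0 in MOLM-13 (0.12), CDKN1B lies on opposite sides of 0 in the lines, CDKN1C is to the right in both, and CDKN2C and CDKN2D lie further left in MOLM-13 than in HEL.

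CDKN2C (p18, chr1:50960745-50974633, plus strand), the INK4 gene best known for limiting the division of blood stem cells, fell in MOLM-13. Its libraries there held 1648 and 1758 counts with the control shRNA (212 and 222 CPM) and 1291 and 1348 with DDX6 shRNA (170 and 179 CPM), without overlap. The mean fell from 217 ± 6.57 to 175 ± 6.66 CPM (SD, n = 2), with a log2 fold change of -0.31 ± 0.07 (edgeR adjusted p = 0.000439). In HEL the groups overlapped, with 1799 and 1563 counts against 1576 and 1422, or 143 and 131 CPM against 136 and 129 CPM. The HEL log2 fold change was -0.05 ± 0.07, with a 95% interval of -0.19 to 0.09 (edgeR adjusted p = 0.647), and it was 0.02 without HEL control replicate 1. The difference between the lines was -0.27 ± 0.10 (edgeR interaction term, adjusted p = 0.0629, 95% interval -0.47 to -0.07), not called. It was called without MOLM-13 control replicate 1, at -0.25 and an adjusted p of 0.0230, and the adjusted p over the 15 alternatives ran from 0.00657 to 0.386. In control cells CDKN2C was lower in HEL than in MOLM-13, by 0.67 ± 0.07 (edgeR adjusted p = 7.81e-12).

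CDKN2D (p19, chr19:10566462-10569059, minus strand), the other INK4 gene detected here, also fell in MOLM-13. The control libraries there held 127 and 146 counts (16.4 and 18.4 CPM) and the DDX6 shRNA libraries 80 and 58 counts (10.5 and 7.71 CPM). The groups were separate, and the mean went from 17.4 ± 1.44 to 9.12 ± 1.99 CPM (SD, n = 2), 52.5% of the control level by the fit. Its log2 fold change was -0.93 ± 0.16 (edgeR adjusted p = 8.73e-06).

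In HEL, CDKN2D was more abundant and moved little. It had 865 and 835 counts with the control shRNA (68.6 and 69.8 CPM) and 720 and 691 with DDX6 shRNA (62.0 and 62.5 CPM). The pairs did not overlap, but the log2 fold change of -0.15 ± 0.08 was not called (edgeR adjusted p = 0.154, 95% interval -0.32 to 0.01). It was called, at -0.19, without MOLM-13 control replicate 1 (adjusted p = 0.0224) or replicate 2 (adjusted p = 0.0229) in the joint fit. Between the lines the log2 fold changes differed by -0.78 ± 0.18, MOLM-13 minus HEL (edgeR interaction term, adjusted p = 0.00181). This call rested in part on MOLM-13 DDX6 shRNA replicate 2, without which the difference was -0.53 (adjusted p = 0.111). With the control shRNA, HEL had 3.98 times the MOLM-13 level of CDKN2D, a log2 difference of 1.99 ± 0.11 (edgeR adjusted p = 1.29e-21).

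The remaining INK4 genes of the chr9 locus, CDKN2A and CDKN2B, had 0 or 1 count in each library, and the reason was not tested. CDKN2A had 0 counts in all 8 libraries, which allows up to 0.238 to 0.399 CPM by library. CDKN2B had 1 count, in a MOLM-13 control library. Their antisense neighbour CDKN2B-AS1 had 0 counts in each HEL library and 9 to 11 in each MOLM-13 library.

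Apart from CDKN1A, 1 of the 4 genes rose (CDKN1C), 1 fell (CDKN1B) and 2 were not called in HEL, where 34.8% of the tested genes were called in either direction. In MOLM-13, where 32.4% were called, CDKN1C rose, CDKN2C and CDKN2D fell, and the call of CDKN1B as higher was lost in 11 of 16 alternatives. In the difference between lines 2 of the 4 were called (CDKN1B and CDKN2D), against 15.1% of the tested genes. Between the control libraries of the lines 3 of 4 were called (CDKN1C and CDKN2D higher in HEL, CDKN2C lower), against 81.2% of the tested genes, 40.8% higher and 40.4% lower in HEL. Cell line cannot be told apart from the table or from any difference in how the libraries of each line were made. Nor can it be told apart from a possible difference in the DDX6 shRNA sequence used in each line.

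Levels of different genes were compared per kilobase of exon. In HEL control cells the order was CDKN2D (46.0 ± 0.603 CPM per kilobase), CDKN2C (41.2 ± 2.53), CDKN1B (24.3 ± 1.66), CDKN1A (1.64 ± 0.0697) and CDKN1C (0.689 ± 0.0667). In MOLM-13 control cells it was CDKN1A (108 ± 8.83), CDKN2C (65.4 ± 1.98), CDKN1B (23.5 ± 1.0), CDKN2D (11.6 ± 0.961) and CDKN1C (0.153 ± 0.143). DDX6 shRNA left both orders as they were. No 2 neighbours in an order had overlapping libraries, but after DDX6 shRNA in HEL the means of CDKN2D (41.4 ± 0.229) and CDKN2C (39.8 ± 1.52) differed by about 1 SD of the latter.

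The sum of the 5 mRNAs per kilobase hardly moved in either line, while its composition did. In HEL it was 114 ± 3.71 CPM per kilobase with the control shRNA and 114 ± 1.01 with DDX6 shRNA (SD, n = 2). The CIP/KIP level went from 26.6 ± 1.79 to 32.3 ± 0.279, and the INK4 level from 87.2 ± 1.92 to 81.3 ± 1.29. CDKN1A made up 1.44% of the sum before and 11.3% after, as CDKN1B went from 21.3% to 15.8%. In MOLM-13 the sum was 208 ± 10.9 and 204 ± 0.0263 CPM per kilobase. There the CIP/KIP level went from 132 ± 7.97 to 145 ± 0.659 and the INK4 level from 76.9 ± 2.94 to 58.7 ± 0.686, and CDKN1A went from 51.8% to 57.4% of the sum. These sums include CDKN1A and carry no test.

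**Figure D3:**
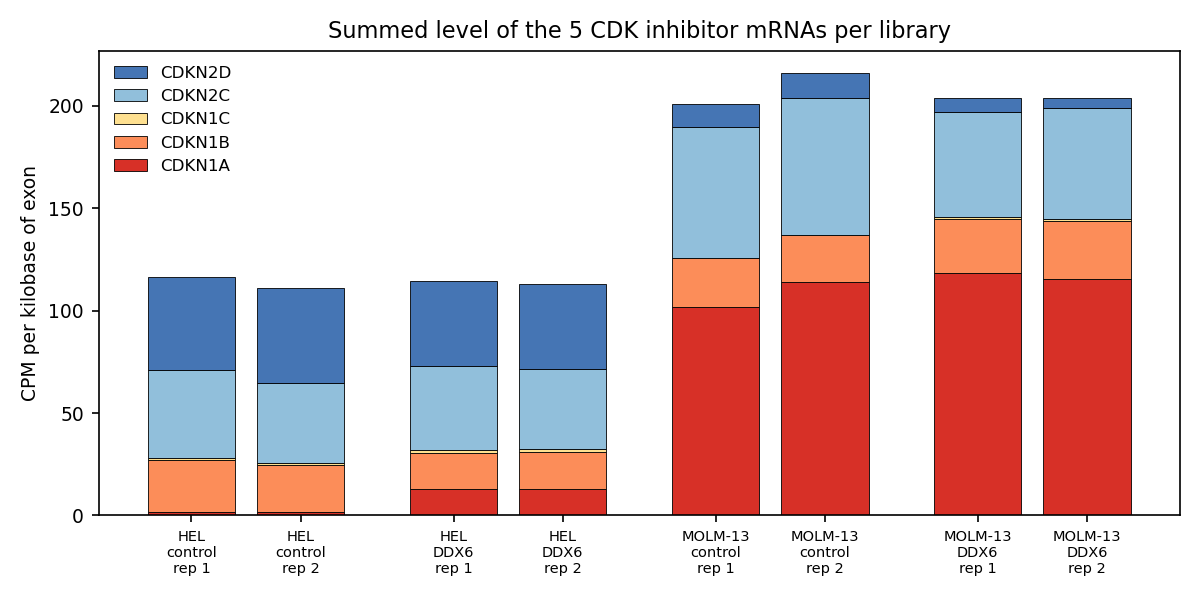
Summed level of the 5 CDK inhibitor mRNAs in each library, in CPM per kilobase of exon, stacked by gene. The bars are near 114 in all HEL libraries and between 201 and 216 in the MOLM-13 libraries. The red CDKN1A segment grows in HEL after DDX6 shRNA and fills the largest share of each MOLM-13 bar.

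By likeness to CDKN1A over the 8 libraries (Pearson r of log2(CPM + 0.5), 12325 genes compared), the closest genes were DBI (r = 0.998), VAMP5 (0.997), SPCS1 (0.997), COX7B (0.997) and ARPC2 (0.996), and 29 genes reached 0.99. Their shared order, lowest in HEL control libraries and highest in MOLM-13, follows from how they were chosen. DBI, an acyl-CoA binding protein, was at 120 and 170 CPM in HEL without and with DDX6 shRNA, and at 263 and 272 CPM in MOLM-13. For ARPC2, a subunit of the Arp2/3 actin complex, these levels were 363, 460, 638 and 642 CPM. Their HEL log2 fold changes were 0.34 to 1.07. Exons of NEK4 cover 50.7% of SPCS1 on the other strand, so its counts could include reads of NEK4. Among the members r with CDKN1A was 0.80 for CDKN2C, 0.30 for CDKN1B and -0.90 for CDKN2D. The points are 4 groups of 2 libraries from 2 lines, so these values mostly follow the level of each gene in the lines.

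The list of cyclins, CDKs and their regulators, which include CDC25 phosphatases and the inhibitory kinases WEE1 and PKMYT1, held 21 tested genes. In MOLM-13, 13 fell and 1 rose (median log2 fold change -0.33), where 14.3% of all tested genes fell and 18.1% rose. In HEL, 6 rose and 5 fell (median -0.01; 3 and 3 with DESeq2), where 20.7% of all tested genes rose and 14.1% fell. The median over all tested genes was 0 in MOLM-13 and 0.03 in HEL. CDK1, the mitotic kinase, fell in MOLM-13 from 91.7 to 49.9 CPM (-0.88 ± 0.09, edgeR adjusted p = 2.83e-10) and in HEL from 182 to 145 CPM (-0.33 ± 0.07, edgeR adjusted p = 0.000446). CDC25A, the phosphatase that removes inhibitory phosphates from CDK2, fell from 42.9 to 26.5 CPM in MOLM-13 (-0.69 ± 0.11) and was called higher in HEL (0.19 ± 0.07, edgeR adjusted p = 0.0287). The HEL call of CDC25A was not kept under every alternative. In HEL, CCND3, a D-type cyclin that partners CDK4 and CDK6, rose from 636 to 833 CPM (0.39 ± 0.06, edgeR adjusted p = 5.69e-07). CCND2, another D-type cyclin, fell in both lines, from 90.7 to 55.3 CPM in HEL (-0.71 ± 0.08, edgeR adjusted p = 4.34e-10) and from 89.98 to 55.8 CPM in MOLM-13 (-0.69 ± 0.09, edgeR adjusted p = 8.86e-09). For 11 of the 21 genes the change in MOLM-13 was called lower than that in HEL (edgeR interaction term, 7 with DESeq2). Over all tested genes 7.59% were called in that direction. Counts in HEL were 3, 2 and 3 rises without control replicate 1, control replicate 2 or DDX6 shRNA replicate 1, and 2 falls without control replicate 1 or DDX6 shRNA replicate 2. Without MOLM-13 DDX6 shRNA replicate 1 no gene of the list rose in MOLM-13, and the 11 differences became 5 without that library or HEL control replicate 2 and 7 without MOLM-13 DDX6 shRNA replicate 2.

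Downstream of the CDKs stand the RB family, the E2F factors and the DREAM complex. Of 20 such genes 6 fell and 0 rose in HEL (edgeR, 1 at an unadjusted p under 0.05, 0 with DESeq2), and 10 fell and 2 rose in MOLM-13 (1 rose with DESeq2). Over all tested genes 14.1% fell and 20.7% rose in HEL, and 14.3% fell and 18.1% rose in MOLM-13. E2F2, an activator of S-phase genes, fell in HEL from 37.4 to 19.8 CPM (-0.92 ± 0.11, edgeR adjusted p = 2.82e-09) and in MOLM-13 from 16.2 to 7.46 CPM (-1.11 ± 0.17, edgeR adjusted p = 1.48e-06). E2F1 fell in MOLM-13 from 50.4 to 35.04 CPM (-0.53 ± 0.10). The HEL falls numbered 2 without control replicate 1 and 3 without any other single HEL library. In MOLM-13 there were 5 falls and 1 rise without DDX6 shRNA replicate 1, and 0 rises without control replicate 2 or DDX6 shRNA replicate 2.

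Of 30 genes that carry out replication and mitosis, most fell in MOLM-13 and 16 fell in HEL. In MOLM-13, 26 of 30 fell and 0 rose (edgeR, 0 also at an unadjusted p under 0.05 and with DESeq2), with a median log2 fold change of -0.57, where 14.3% of all tested genes fell. In HEL, 16 of 30 fell, 13 were not called and 1 rose, with a median of -0.21, where 14.1% of all tested genes fell. The gene that rose was CDC6, at 0.41 ± 0.07 in HEL and -0.58 ± 0.10 in MOLM-13. CDT1, which loads the replicative helicase, fell in HEL from 155 to 96.4 CPM (-0.69 ± 0.07) and in MOLM-13 from 124 to 60.2 CPM (-1.05 ± 0.08). AURKB, a mitotic kinase, fell from 66.7 to 33.2 CPM in MOLM-13 (-1.01 ± 0.10, edgeR adjusted p = 1.15e-11), and the proliferation marker MKI67 from 408 to 326 CPM in HEL (-0.32 ± 0.06, edgeR adjusted p = 8.85e-05). AURKB also fell in HEL, from 79.4 to 65.8 CPM (-0.27 ± 0.08, edgeR adjusted p = 0.00502). MKI67 also fell in MOLM-13, from 208 to 124 CPM (-0.75 ± 0.07, edgeR adjusted p = 1.85e-11). For 18 of the 30 the change was called lower in MOLM-13 than in HEL (edgeR interaction term, 13 with DESeq2). Over all tested genes 7.59% were called in that direction. The HEL falls numbered 8 without control replicate 1 and 10 without DDX6 shRNA replicate 2. The 18 differences numbered 9 without HEL control replicate 2, 11 without HEL DDX6 shRNA replicate 1, 10 without MOLM-13 DDX6 shRNA replicate 1 and 11 without its replicate 2. CDKN1A was 7.79-fold higher after DDX6 shRNA in HEL and at a high level in every MOLM-13 library, and its part in these falls was not tested.

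Of 14 genes of ubiquitin ligases that turn over CIP/KIP proteins and of factors that act with them, 4 fell and 2 rose in HEL. Over all tested genes 14.1% fell and 20.7% rose there. In MOLM-13, 5 fell and 4 rose, where 14.3% fell and 18.1% rose. SKP2, the F-box protein that marks p27 for degradation, fell from 81.2 to 54.5 CPM in HEL (-0.57 ± 0.08, edgeR adjusted p = 1.47e-07). SKP2 also fell in MOLM-13, from 38.8 to 29.7 CPM (-0.38 ± 0.11, edgeR adjusted p = 0.00432). In MOLM-13 its cofactor CKS1B fell from 59.8 to 33.6 CPM (-0.83 ± 0.10, edgeR adjusted p = 8.19e-09), and SKP1, the adaptor of the same ligase, rose from 163 to 202 CPM (0.31 ± 0.07). DTL, the receptor that delivers p21 to a CUL4 ligase on PCNA, fell in both lines, by 0.30 ± 0.07 in HEL and 0.57 ± 0.10 in MOLM-13 on the log2 scale. PCNA fell in MOLM-13 from 353 to 246 CPM (-0.52 ± 0.07). The 4 falls in HEL became 2 without control replicate 2 or DDX6 shRNA replicate 1. The 2 rises in HEL became 1 without DDX6 shRNA replicate 2, and 0 on leaving out any other HEL library or either MOLM-13 DDX6 shRNA library, and 1 with DESeq2, RLE or upper-quartile scaling. The 4 rises in MOLM-13 became 2 without control replicate 2 and 1 without DDX6 shRNA replicate 2.

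**Figure D4:**
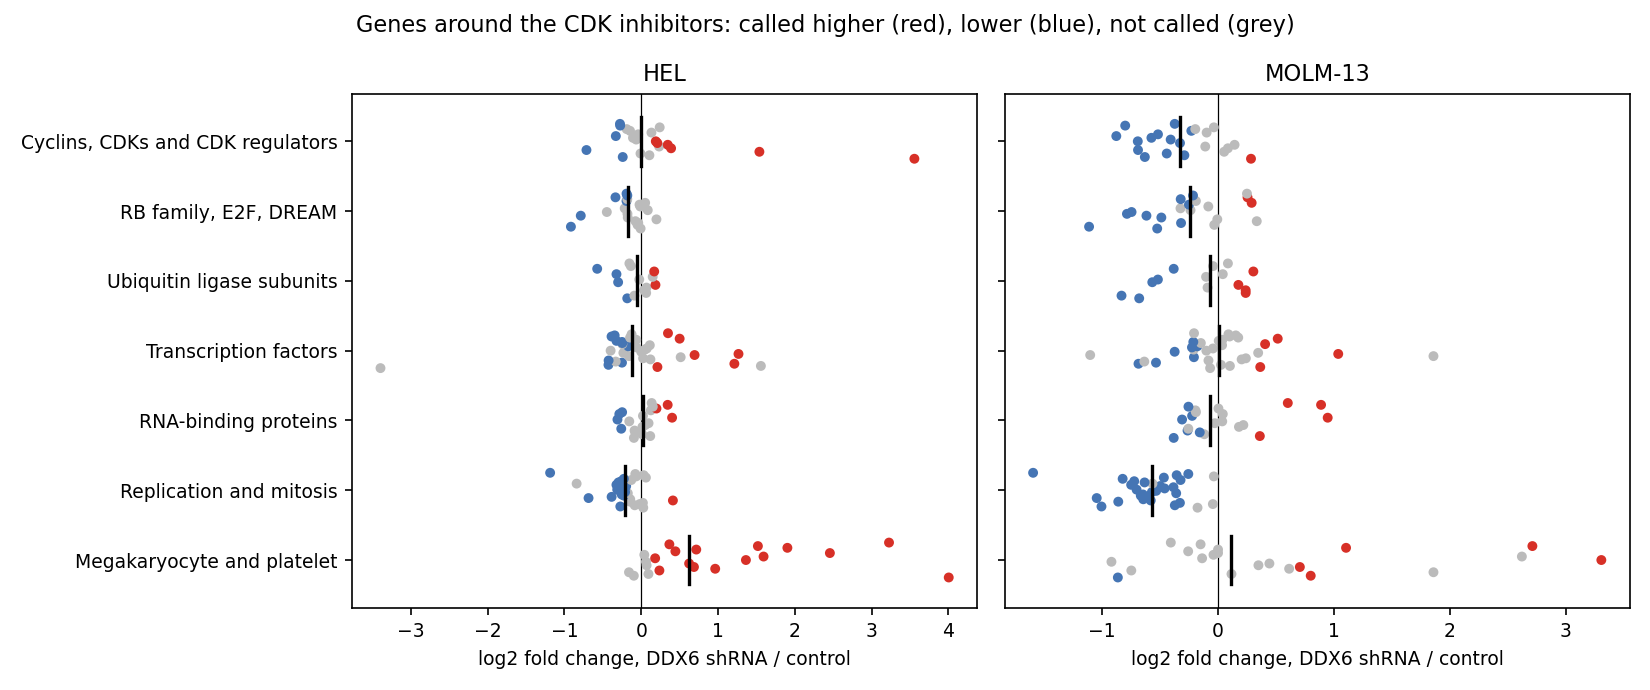
Log2 fold change after DDX6 shRNA of each tested gene in 7 lists around the CDK inhibitors, in HEL (left) and MOLM-13 (right; the 2 panels have their own scales), with a bar at the list median. Red points were called higher, blue lower and grey not called at an adjusted p of 0.05. Replication and mitosis genes are almost all blue in MOLM-13 (26 of 30), and megakaryocyte and platelet genes mostly red in HEL (15 of 21).

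Transcription factors and Polycomb proteins that act on CIP/KIP or INK4 genes numbered 33. Of these, 6 rose and 9 fell in HEL, and 4 rose and 7 fell in MOLM-13. These are 18.2% rising and 27.3% falling in HEL, against 20.7% and 14.1% of all tested genes, and 12.1% rising and 21.2% falling in MOLM-13, against 18.1% and 14.3%. ID2, which opposes the E proteins that activate CDKN1A, rose in both lines, in HEL from 129 to 310 CPM (1.27 ± 0.07, edgeR adjusted p = 5.83e-20) and in MOLM-13 from 46.8 to 96.0 CPM (1.04 ± 0.08, edgeR adjusted p = 8.16e-14). EGR1, an immediate early factor known to bind the CDKN1A promoter, rose in HEL from 44.8 to 104 CPM (1.21 ± 0.09, edgeR adjusted p = 1.36e-15). In MOLM-13 it was called lower, at 5.55 and 3.44 CPM without and with DDX6 shRNA (-0.69 ± 0.27, edgeR adjusted p = 0.0423), a call lost in 6 of 16 alternatives, among them leaving out any single MOLM-13 library (adjusted p of up to 0.222). The log2 fold changes of EGR1 differed by -1.90 ± 0.28, MOLM-13 minus HEL (edgeR interaction term, adjusted p = 1.85e-06). FOXO3, an activator of CDKN1B, fell in HEL from 68.3 to 50.8 CPM (-0.42 ± 0.08, edgeR adjusted p = 7.85e-05). EZH2, the Polycomb methyltransferase that silences the CDKN2A locus, fell in MOLM-13 from 92.2 to 63.6 CPM (-0.54 ± 0.08). EZH2 also fell in HEL, from 95.3 to 80.1 CPM (-0.25 ± 0.08, edgeR adjusted p = 0.00774). The 9 falls in HEL became 14 on leaving out either MOLM-13 control library. The 7 falls in MOLM-13 became 2 with DESeq2 and 4, 1 and 2 without control replicate 1, DDX6 shRNA replicate 1 or DDX6 shRNA replicate 2.

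RNA-binding proteins that act on CIP/KIP mRNAs numbered 20, of which 3 rose and 4 fell in HEL and 4 rose and 6 fell in MOLM-13. Over all tested genes 20.7% rose and 14.1% fell in HEL, and 18.1% rose and 14.3% fell in MOLM-13, so the counts other than the 6 falls were near the background. In MOLM-13, ZFP36L2, which destabilises mRNAs with AU-rich elements, rose from 173 to 262 CPM (0.60 ± 0.08, edgeR adjusted p = 1.07e-07). HNRNPD (AUF1), which binds AU-rich elements of CDKN1A mRNA, fell from 668 to 556 CPM (-0.26 ± 0.06), and CELF1, which binds CDKN1A mRNA, from 97.8 to 75.0 CPM (-0.38 ± 0.09). The 3 rises in HEL became 1 with DESeq2 or upper-quartile scaling, 0 without control replicate 1, and 1 on leaving out control replicate 2, either HEL DDX6 shRNA library or either MOLM-13 DDX6 shRNA library. The 4 falls in HEL became 2 without control replicate 2 or DDX6 shRNA replicate 2 and 7 on leaving out either MOLM-13 control library, and the 6 falls in MOLM-13 became 3 without DDX6 shRNA replicate 1.

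Megakaryocyte and platelet genes rose beside CDKN1A in HEL. Of 22 genes 21 were tested, and 15 rose and 0 fell in HEL (edgeR, 1 fell at an unadjusted p under 0.05). With DESeq2 11 rose and 0 fell there. The median log2 fold change was 0.62, and 20.7% of all tested genes rose. The adhesion protein gene THBS1 rose from 30.3 to 113 CPM (1.90 ± 0.09, edgeR adjusted p = 6.28e-22) and the platelet receptor gene TREML1 from 8.92 to 25.6 CPM (1.52 ± 0.14, edgeR adjusted p = 2.44e-12). In MOLM-13, 5 rose and 1 fell (median 0.12), where 18.1% of all tested genes rose and 14.3% fell. MYL9, a platelet myosin light chain, went there from 7.57 to 75.2 CPM (3.31 ± 0.13, edgeR adjusted p = 6.38e-25). It also rose in HEL, from 9.75 to 25.15 CPM (1.36 ± 0.12, edgeR adjusted p = 3.37e-12). THBS1 and TREML1 were also called higher in MOLM-13, at low levels. THBS1 went from 3.32 to 7.15 CPM (1.11 ± 0.25, edgeR adjusted p = 0.00045). TREML1 went from 0.378 to 2.58 CPM (2.71 ± 0.55, edgeR adjusted p = 0.000107). ITGA2B, which marks the lineage, was at 1104 and 1159 CPM in HEL (0.07 ± 0.06, not called). For 4 of the 21 genes the change in MOLM-13 was called lower than that in HEL, and for 2 higher (edgeR interaction term). With DESeq2 these counts were 0 and 2. Over all tested genes 7.59% and 7.53% were called in these directions. Several of the genes were near 0 in MOLM-13 control cells, such as SELP (0 CPM), ITGB3 (0.19 CPM) and GP6 (0.252 CPM). In HEL 1 fell with upper-quartile scaling or on leaving out either MOLM-13 DDX6 shRNA library, and 2 fell on leaving out either MOLM-13 control library. In MOLM-13 there were 3 rises without DDX6 shRNA replicate 2, and the 1 fall was 3 without control replicate 1 and 0 on leaving out any other MOLM-13 library or either HEL control library, and 0 with DESeq2, RLE or upper-quartile scaling. The part of these genes in the rise of CDKN1A was not tested.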

How the data were processed

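The authors deposited 1 table of gene counts per cell line, with 4 libraries each: whole-number counts, not normalized. The labels' protocols name the miRNeasy Micro kit for RNA and NEBNext Ultra II for the libraries, and the submitters' processing notes list GRCh38, STAR, DESeq2 and SAMtools 1.12. Which program counted the reads, with which strand setting and annotation, is not given in the sources used here, so reads of overlapping genes could be shared. Columns were matched to samples by line, shRNA and replicate number. The HEL DDX6 shRNA columns carry a hairpin number that the titles and the MOLM-13 columns lack. Whether both lines received the same DDX6 hairpin is not given by the labels. In all, 0 columns were left unused.

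The members and the gene lists were chosen with earlier results of these data known. All 8 libraries entered 1 fit with a mean per group (edgeR 4.0.16): filterByExpr (minimum count 10) left 16499 genes, libraries were TMM-scaled, and glmQLFTest was used with Benjamini-Hochberg adjustment and a threshold of 0.05. The SE is the log2 fold change divided by the square root of F, intervals have a 95% level, and CPM per kilobase uses the union of exons (GENCODE, GRCh38). The labels do not say whether replicates are separate cultures, so p-values cover only library-to-library spread, possibly technical. No replicate pair agreed within sampling noise.

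The alternatives were RLE and upper-quartile scaling, no filter, a minimum count of 30, DESeq2 1.42.0, removal of a GC trend (94.2% of tested genes had GC content), a replicate block, each line alone, and leaving out each library. From each list the rule took, per line and direction, up to 4 called genes of at least 5 CPM with the largest change. The text names from these only genes that kept the call under every alternative in a line, a narrowing made after their values were seen. For some of these genes values in the other line are also given, whether or not the call there was kept. For the rest they are left out, so a gene given in a single line may also have changed in the other. ITGA2B is added by its values. Some items, with 1 gene list that depends on them, are not reported here. Genes like CDKN1A are the 5 with the highest r that reach 5 CPM in some group. UTR features come from the longest principal transcript, and lengths within 20% count as similar.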

Additional observations from a re-analysis of the deposited data

Results flagged for a closer look

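The change of CDKN1B after DDX6 shRNA differed between the lines by 0.66 on the log2 scale in MOLM-13 minus HEL, by the interaction term. It was lower with DDX6 shRNA in both HEL libraries than in both HEL controls, and higher in both MOLM-13 libraries than in both MOLM-13 controls. The change of CDKN2D differed by -0.78, by the same test, with a deeper fall in MOLM-13 than in HEL. CDKN1A was not screened in this way, since it was picked for its difference between the lines, and with 2 libraries a group no single library was screened as standing apart.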

How the results depend on the processing

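Of 365 values of the members and DDX6 under the alternatives, 339 kept their direction and their side of the threshold or, for CDKN1A, their size. For CDKN1A, which was given no test, this meant a shift smaller than the SD between replicates, combined over the groups compared. In MOLM-13 that SD (0.121) was above the CDKN1A log2 fold change itself (0.117). The CDKN1A log2 fold change in HEL stayed between 2.92 and 3.01. For every value below that was not kept in this sense, the cause was not tested. With DESeq2, CDKN1C in HEL was 1.16 (adjusted p = 0.0625), CDKN1B in MOLM-13 0.23, and genes called numbered 2178 higher and 1383 lower in HEL, 1405 lower in MOLM-13, and 803 higher and 691 lower for the difference between lines. CDKN1B in MOLM-13 also lost its call without a filter (0.22) and with the line alone (0.21), and ranged from 0.19 to 0.28 when a library was left out. With the GC trend removed, CDKN2D in HEL was -0.19 and called, CDKN2C differed between lines by -0.30 and was called, CDKN1A differed between the control groups by -5.66, and SPCS1 in MOLM-13 was 0.000334. A minimum count of 30 also gave the CDKN2C difference a call (-0.27), as the line alone did for CDKN2D in HEL (-0.19). Upper-quartile scaling moved the median of all genes between the control groups by -0.12, CDKN1B there to -0.072 and SRSF3 in HEL to -0.022. The line alone turned SRSF3 in HEL to -0.024, ARPC2 in MOLM-13 to -0.00233 and COX7B to -0.000346.

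When a library was left out, CDKN2C in HEL ranged from -0.11 to 0.018, CDKN2D in HEL from -0.19 to -0.14, the difference between lines from -0.33 to -0.17 for CDKN2C and from -0.97 to -0.53 for CDKN2D, and between the control groups CDKN1A ranged from -6.07 to -5.90 and CDKN1B from -0.014 to 0.14. Genes called ranged from 2216 to 3566 higher and 1503 to 3205 lower in HEL, from 1433 to 2300 lower in MOLM-13, and from 849 to 1912 higher and 658 to 1326 lower for the difference. Uncalled values that crossed 0 were SRSF3 in HEL (-0.036 to 0.058) and, in MOLM-13, ARPC2 (-0.00307 to 0.051), DBI (-0.00736 to 0.12), SPCS1 (-0.058 to 0.011) and STK38 (-0.016 to 0.062). Of 658 list counts recomputed, 520 stayed within 1.5 times. Deviations of same-numbered libraries had little correlation across genes (0.09 in HEL and -0.11 in MOLM-13). With 2 libraries a group this cannot show whether same-numbered libraries were made together. The main fit did not pair them. With the replicate block CDKN1B in MOLM-13 kept its value of 0.22 but not its call (adjusted p = 0.0698), and no other call of a member changed. DESeq2 gave no adjusted p for the CDKN1C difference. Few counts limit CDKN1C, at 1 and 5 in the MOLM-13 controls.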

Other observations

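Among tested genes within 250 kilobases of CDKN1A, a window chosen after the values were seen, changes in HEL went in both directions. CPNE5, a calcium-dependent membrane-binding protein gene 164 kilobases downstream, had a log2 fold change of 1.23 ± 0.10 in HEL (19.1 to 45.0 CPM) and 1.22 ± 0.37 in MOLM-13. STK38, a kinase gene on the other side, went from 86.7 to 115 CPM in HEL (0.41 ± 0.07) and had 0.01 ± 0.09 in MOLM-13, and PPIL1 had 0.31 ± 0.07 in HEL. The splicing factor gene SRSF3, which lies between STK38 and CDKN1A, had 0.01 ± 0.06 in HEL and -0.24 ± 0.06 in MOLM-13. RAB44, the nearest downstream gene, had -0.33 ± 0.08 in HEL, and KCTD20 and C6orf89 had 0.17 ± 0.07 and -0.09 ± 0.07.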
